A study of Mus musculus with 6 samples.

Results

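The genes described are the amino acid transporter families of the solute carrier superfamily: protein-coding genes whose symbol begins with Slc1a, Slc3a, Slc6a, Slc7a, Slc36a, Slc38a or Slc43a followed by a member number. By that rule 63 of the 54532 genes in the deposited table are members. They were set out in whole colon, removed and frozen intact, of C57BL/6 mice of postnatal day 56: 3 libraries of the IL10-/- genotype, here called Il10 knockout, and 3 libraries of the wild type, WT. The knockout is not tied to a cell type in the labels, the design of the allele is not given in the sources used here, and the labels do not tie each library to a mouse of its own, so a p-value here speaks of spread among libraries, which may be technical. The targeted gene was not lower: Il10 had 13.8, 10.6 and 14.5 FPKM in the Il10 knockout libraries, against 0.757, 0.173 and 0.177 FPKM in the WT libraries (log2 fold change 3.36, SE 0.25, limma adjusted p = 0.0092). That level is over the whole gene and no exon is resolved, so it cannot verify the genotypes, which are taken from the labels. FPKM are fragments scaled by the length of the gene and a size factor of the library, so levels can be compared between genes.

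Amino acids cross cell membranes on carriers that differ in substrate and driving force. In the gut epithelium an apical carrier takes up the amino acid, often with sodium, chloride or protons, and a basolateral exchanger releases it. The exchangers of the Slc7 light-chain branch reach the membrane bound to a heavy chain of the Slc3 family. The Slc6 family also holds the carriers of creatine, taurine, glycine and of transmitters such as serotonin and GABA. Cells short of amino acids raise the translation of the transcription factor Atf4, which binds a short element in the promoters of many carriers and amino acid enzymes.

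Recovered reads, worked out from the FPKM steps, numbered 14235679 to 14651559 in the knockout libraries and 13107941 to 15797928 in the WT libraries, of which members took 22090 to 25617 and 17509 to 23588. The libraries differed in tissue makeup within the groups and between them. The summed FPKM of 14 colon epithelium markers was 20934, 14342 and 10819 in knockout libraries 1 to 3, against 6639, 48110 and 3798 in WT libraries 1 to 3, and that of 12 smooth muscle markers was 1131, 199 and 1041 against 1616, 1456 and 9969. The 12 enteric neuron markers summed to 57.2, 13.6 and 23.4 FPKM in the knockout libraries, against 100.2, 51.7 and 361 FPKM in the WT libraries. The smooth muscle sum was lower in every knockout library than in any WT library, while the epithelium and neuron sums overlapped. In the fit 11 of 14 epithelium markers had positive fold changes (median 0.88), where 54.1% of all tested genes did. All 11 smooth muscle and all 4 enteric glia markers in the fit were negative (medians -2.16 and -1.28). The 10 neutrophil markers summed to 1893, 1563 and 955 FPKM in the knockout libraries, against 126, 0.958 and 17.4 FPKM in the WT libraries. Of them S100a9, Cxcr2, Retnlg, Mmp8 and Ngp were at 0 in every WT library. All 8 neutrophil markers in the fit were positive and 2 were called, where 0.182% of all tested genes were called. The part of these cells in the values below was not tested. In such bulk tissue fewer cells of a type and less RNA per cell cannot be told apart.

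Promoter sequence is shown for 3 members whose knockout libraries all lay above the WT libraries, the heavy chain Slc3a2 and its light chains Slc7a7 and Slc7a11. The stretches are RefSeq windows of GRCm38.p6 on the minus strand, printed 5′ to 3′ and ending at the base before the start of transcription; capitals mark matches to the amino acid response element bound by Atf4 (TGATGNAA, on either strand) and to the STAT element (TTCNNNGAA, which reads the same on both strands). Slc7a11 is at chr3:50443614-50443806, Slc7a7 at chr14:54417945-54418095, before the most upstream of its 5 RefSeq starts, and Slc3a2 at chr19:8713898-8714017.
Slc7a11: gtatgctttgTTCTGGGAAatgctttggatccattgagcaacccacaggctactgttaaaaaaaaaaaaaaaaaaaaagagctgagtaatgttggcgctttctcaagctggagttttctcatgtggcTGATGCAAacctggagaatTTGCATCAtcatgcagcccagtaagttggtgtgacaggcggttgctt
Slc7a7: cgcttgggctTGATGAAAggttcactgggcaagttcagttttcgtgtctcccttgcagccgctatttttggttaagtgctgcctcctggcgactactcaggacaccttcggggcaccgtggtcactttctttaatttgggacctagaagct
Slc3a2: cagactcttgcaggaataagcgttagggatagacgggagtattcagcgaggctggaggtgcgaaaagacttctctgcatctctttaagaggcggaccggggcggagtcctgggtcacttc
The Slc7a11 stretch holds the response element in both orientations, starting 66 and 47 bases before the start, and 1 STAT element starting 183 bases before it. Slc7a7 holds 1 response element in the printed stretch, 141 bases before the start, and another that spans that start. The last 120 bases before the Slc3a2 start hold no match to either. Of the 45 members with a RefSeq window (250 bases before to 50 after the start), 4 (8.89%) held the response element in any window, against 4.51% of all 27025 genes with a window. The others were Slc1a4, with a log2 fold change of -0.33, and Slc6a21. Slc7a15 and Slc6a20b, whose knockout libraries also all lay above the WT libraries, held neither element, and Slc36a2 has no window. The STAT element was in 4 of the 45 (8.89%), Slc7a11, Slc7a1, Slc38a9 and Slc1a3, against 9.55% of all genes. A match of letters is a description and not a binding site.

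The family's summed level overlapped between the groups. The 63 members summed to 382, 332 and 274 FPKM in the knockout libraries, against 297, 326 and 246 FPKM in the WT libraries (329 ± 54.3 against 290 ± 40.8, SD, n = 3 each; exact two-sided permutation test p = 0.4). Of the members, 4 had no read in any library (Slc6a5, Slc6a16, Slc6a18 and Slc7a12), 22 lay under a mean of 0.1 FPKM, those 4 included, and 14 lay between 0.1 and 1 FPKM. The remaining 27, with a mean of at least 1 FPKM over the 6 libraries, entered the limma fit on log2(FPKM + 1) across all 12668 such genes. Slc6a14, Slc6a8 and Slc1a5 made up 55.9% to 69.6% of the family's FPKM in the knockout libraries, against 45.8% to 70.1% in the WT libraries.

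None of the 27 members in the fit passed the threshold of an adjusted p of 0.05 (limma, Benjamini-Hochberg over all genes), where 0.182% of all tested genes did, every one of those higher in the knockout libraries; voom on the recovered reads called 0 members and 0.0158% of all genes. At an unadjusted p under 0.05 limma had 3 members higher, Slc7a7, Slc3a2 and Slc6a8, and 0 lower, which is 11.1% of the 27 beside 10.2% of all tested genes (6.14% higher and 4.03% lower). The median log2 fold change, knockout minus WT, was 0.08 over the 27 members and 0.04 over all tested genes, with 16 members positive (59.3%) and 11 negative, where 54.1% of all tested genes were positive. Every knockout library lay above every WT library for Slc3a2 and Slc7a7, 2 of the 27 where 8.84% of tested genes did so. Every one lay below for Slc6a17, 1 of the 27 where 7.89% did, a gene that reached a mean of 1 FPKM only through WT library 3. These shares are close to those of the background, so the values below describe single genes and not a shift of the family.

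**Figure D1:**
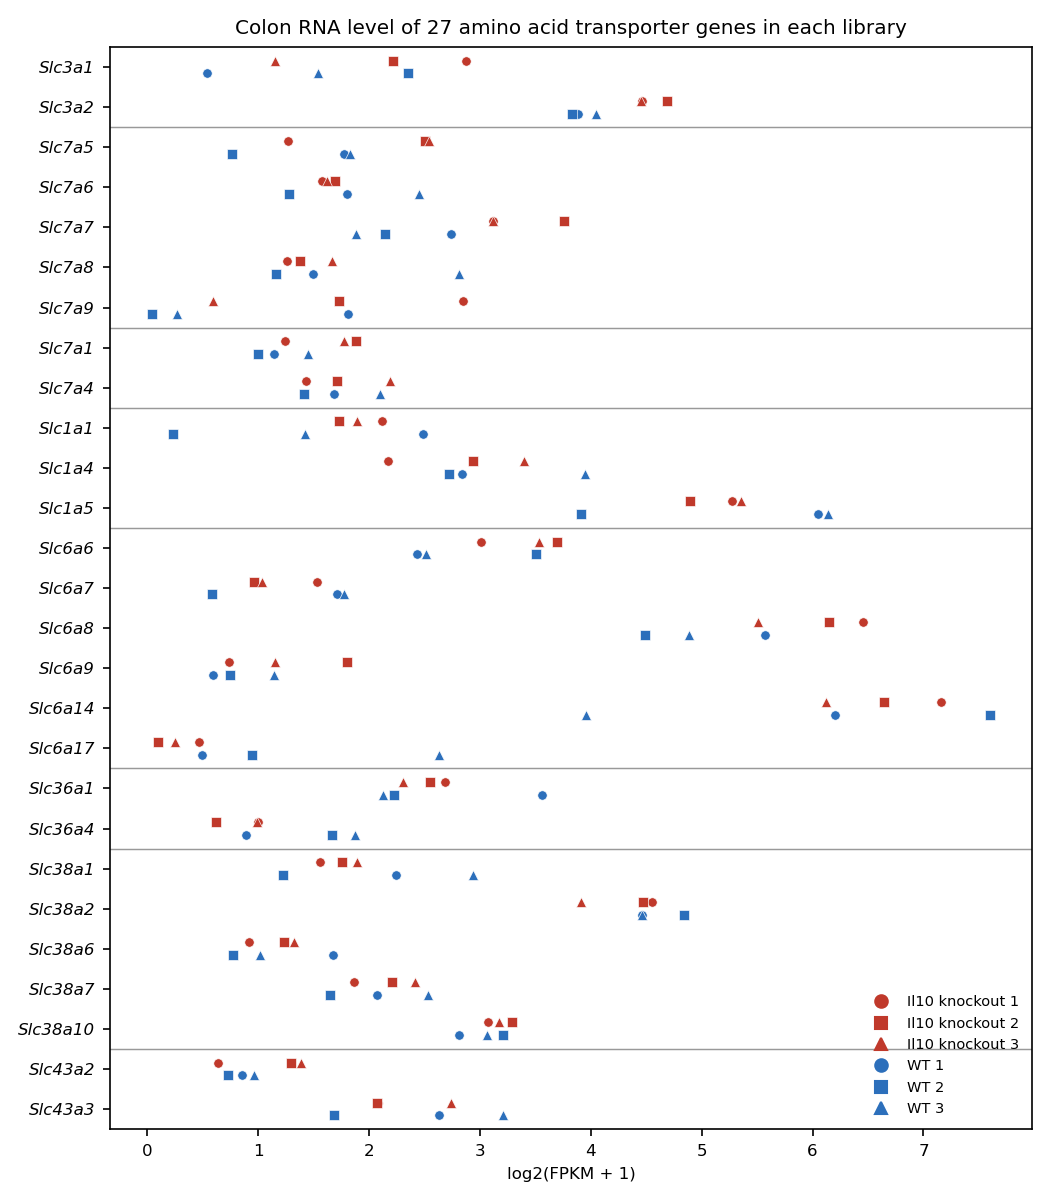
Level of the 27 members in the fit, log2(FPKM + 1), in each of the 3 Il10 knockout libraries (red, upper row of a gene) and 3 WT libraries (blue, lower row), with lines between the carrier groups. WT library 3 is the highest of the 6 for 10 members and WT library 2 the lowest for 15, while the knockout points of Slc3a2 and Slc7a7 lie to the right of all their WT points.

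**Figure D2:**
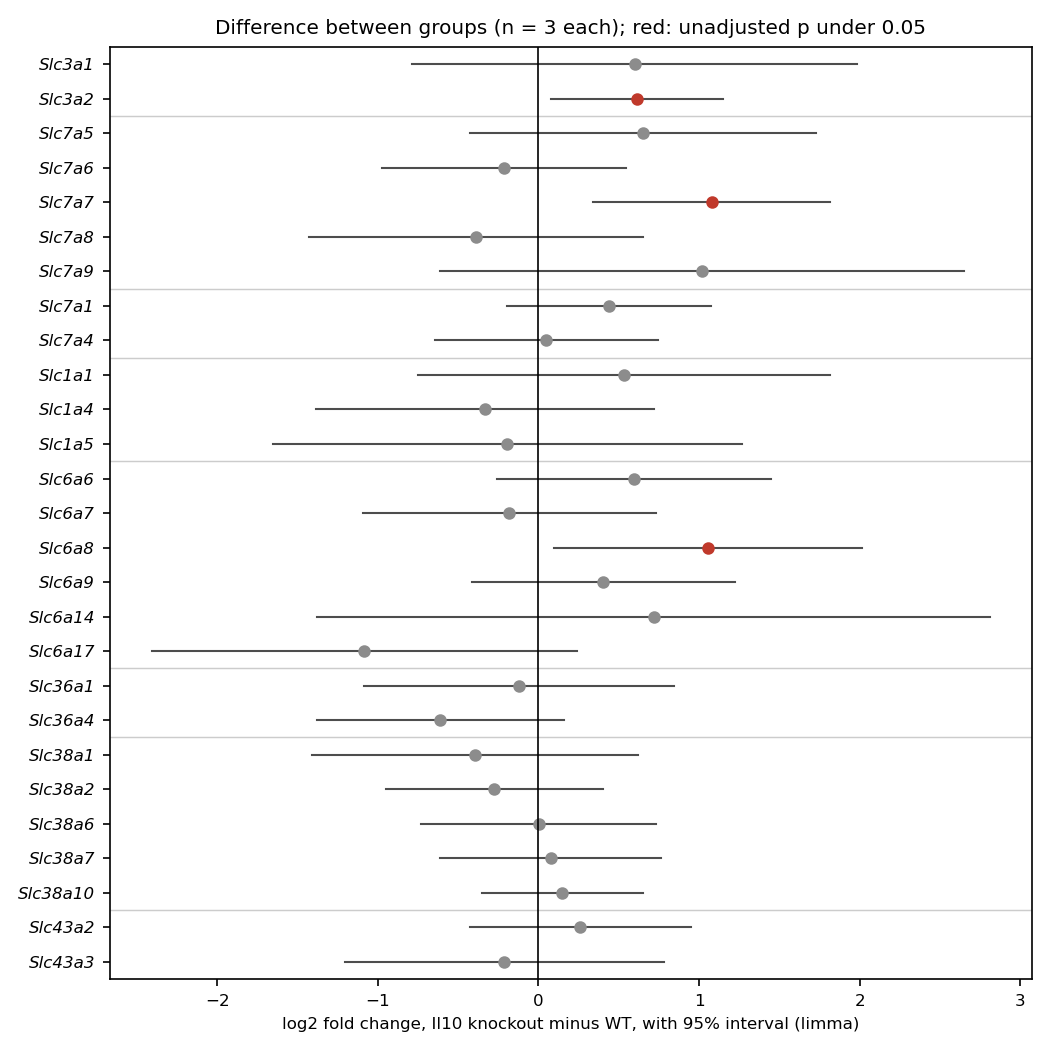
Log2 fold change of the 27 members, Il10 knockout minus WT, with 95% intervals from limma (n = 3 libraries each). The intervals of Slc3a2, Slc7a7 and Slc6a8 (red) lie above 0 before adjustment, and none of the 27 passed an adjusted p of 0.05.

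Slc3a2 lay higher in every knockout library, without passing the adjusted threshold. It encodes CD98 heavy chain, which carries 6 light chains to the basolateral or plasma membrane and also binds integrins. Slc3a2 (ENSMUSG00000010095, chromosome 19, 8706882 to 8723369, minus strand) had 21.04, 24.7 and 20.9 FPKM in the knockout libraries, against 13.7, 13.2 and 15.5 FPKM in the WT libraries. The groups did not overlap, and the spread within each was small beside the gap (22.2 ± 2.17 against 14.2 ± 1.21, SD, n = 3 each). The log2 fold change was 0.61 (SE 0.23, 95% interval 0.08 to 1.15; limma adjusted p = 0.455). Without single libraries it lay between 0.54 and 0.68, and its unadjusted limma p was under 0.05 in 8 of the 14 alternative settings. That p was 0.105 with quantile normalization and 0.0682 with the replicate block. It was 0.0661, 0.124 and 0.0719 without knockout libraries 1, 2 and 3 in turn, and 0.0768 without WT library 1.

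Slc7a7 encodes the light chain that exports lysine and arginine across the basolateral membrane in exchange for neutral amino acids and sodium; its loss causes lysinuric protein intolerance in humans, and macrophages also express it. Slc7a7 (ENSMUSG00000000958, chromosome 14, 54369442 to 54417780, minus strand) had 7.70, 12.5 and 7.68 FPKM in the knockout libraries, against 5.66, 3.43 and 2.68 FPKM in the WT libraries. All 3 knockout libraries were above the highest WT library, knockout library 2 by the most. The log2 fold change was 1.08 (SE 0.31, 95% interval 0.34 to 1.82; unadjusted p = 0.0108 and adjusted p = 0.349 in limma), and its unadjusted p stayed under 0.05 in all 14 alternative settings. Exons of Oxa1l on the other strand share 232 bases with it, 6.998% of its exon bases, and Oxa1l itself had 13.5, 14.1 and 16.2 FPKM against 13.9, 13.7 and 9.53 FPKM. Of 8 macrophage markers in the fit 5 had positive and 3 negative fold changes, and the 9 listed markers summed to 185, 308 and 305 FPKM in the knockout libraries, against 261, 110 and 161 FPKM in the WT libraries. The part of those cells in the Slc7a7 values was not tested.

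Slc7a11, the cystine and glutamate exchanger that feeds glutathione synthesis, was scarce in the WT libraries. It had 0.717, 1.80 and 1.18 FPKM in the knockout libraries (126, 395 and 268 reads), against 0.196, 0.0544 and 0.05002 FPKM in the WT libraries (44, 10 and 9 reads). The groups did not overlap, and the ratio of mean FPKM was 12.3. Its mean over all libraries was under 1 FPKM, so it was not in the main fit. An exact two-sided permutation test gave p = 0.1, the smallest that 3 against 3 allows. That value follows from groups that do not overlap and adds nothing to the separation. The fit with no filter gave an adjusted p of 0.407 in limma.

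The other partners of Slc3a2 showed no common direction. Slc7a5, the leucine and large neutral amino acid exchanger of activated and dividing cells, had 1.41, 4.66 and 4.81 FPKM in the knockout libraries, against 2.42, 0.695 and 2.55 FPKM in the WT libraries, so knockout library 1 fell within the WT range. Slc7a6, a relative of Slc7a7, had 1.98, 2.24 and 2.08 FPKM against 2.49, 1.43 and 4.47 FPKM, and Slc7a8, a broad neutral exchanger, 1.39, 1.60 and 2.17 FPKM against 1.82, 1.24 and 6.01 FPKM. WT library 3 was the highest of the 6 for both, and their fold changes changed sign without it. Slc7a10 had 3 reads in knockout library 1, 3 in WT library 1 and 0 in the other 4 libraries. Summed, the 6 light chains of Slc3a2 had 13.3, 22.9 and 17.9 FPKM in the knockout libraries, against 12.7, 6.84 and 15.8 FPKM in the WT libraries (exact two-sided permutation test p = 0.2), and the level of Slc3a2 over that sum was 1.58, 1.08 and 1.17 against 1.08, 1.93 and 0.985. The ratio of heavy to light chain thus overlapped between the groups.

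**Figure D3:**
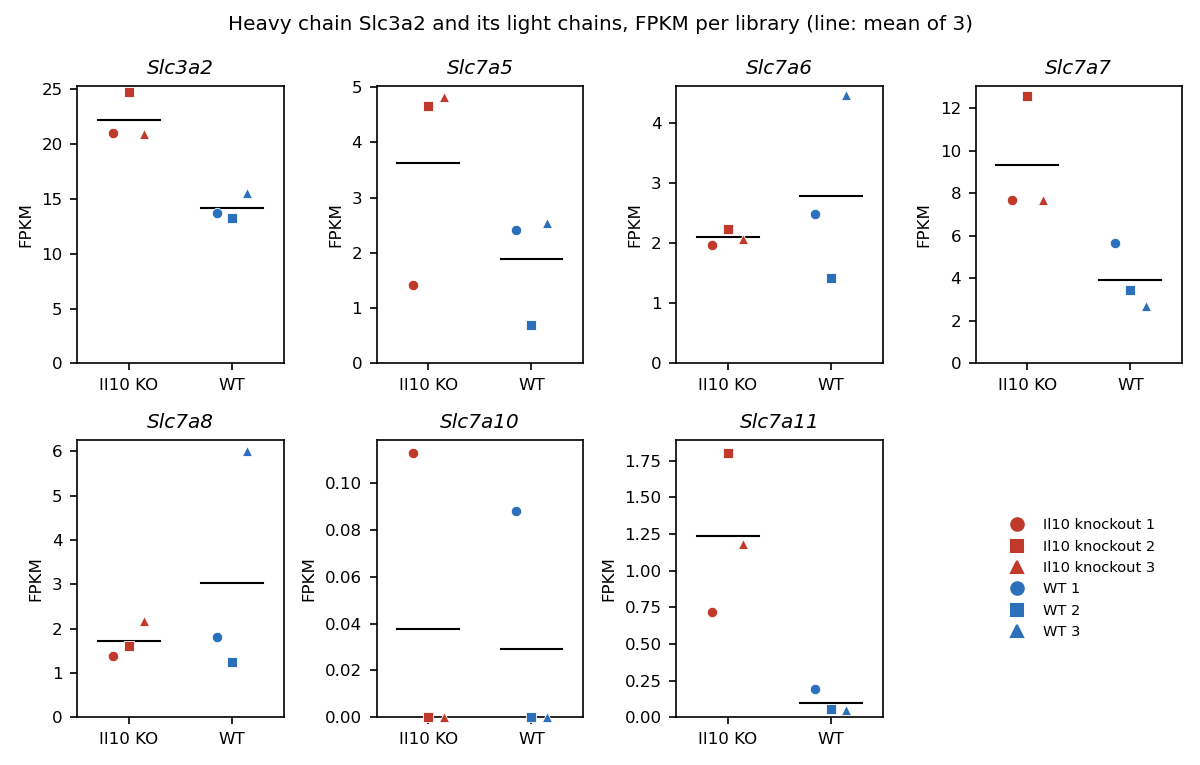
FPKM of the heavy chain Slc3a2 and its 6 light chains in each library, Il10 knockout left and WT right, with the mean of 3 libraries as a line. Slc3a2 (20.9 to 24.7 against 13.2 to 15.5 FPKM), Slc7a7 (7.68 to 12.5 against 2.68 to 5.66 FPKM) and Slc7a11 (0.717 to 1.80 against 0.05002 to 0.196 FPKM) do not overlap between the groups, and the other light chains do.

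The second heavy chain, Slc3a1, pairs with Slc7a9 in the apical uptake of cystine and dibasic amino acids, and loss of either causes cystinuria. Slc3a1 had 6.32, 3.64 and 1.22 FPKM in the knockout libraries, against 0.457, 4.10 and 1.91 FPKM in the WT libraries, and Slc7a9 had 6.22, 2.31 and 0.504 FPKM against 2.50, 0.0283 and 0.202 FPKM. Both overlapped between the groups (log2 fold changes 0.60, SE 0.58, and 1.02, SE 0.69; limma adjusted p = 0.775 and 0.663). In the knockout group both chains had the same order of libraries, with library 1 highest and library 3 lowest. In the WT group they did not go together: the ratio of Slc7a9 to Slc3a1 was 5.48 in WT library 1 and 0.00690 in WT library 2, against 0.412 to 0.984 in the knockout libraries. Slc7a9 rested on 1 read in WT library 2. Prepl on the other strand shares 601 exon bases with Slc3a1, 26.5% of its exon bases, and Prepl had 5.33 to 7.09 FPKM in the knockout libraries and 5.85 to 6.24 FPKM in the WT libraries.

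The cationic amino acid transporters of the Slc7 family act without a heavy chain and bring arginine into cells. Slc7a1, the general carrier, had 1.37, 2.69 and 2.43 FPKM in the knockout libraries, against 1.21, 0.992 and 1.73 FPKM in the WT libraries, with a log2 fold change of 0.44 (SE 0.27; limma adjusted p = 0.632). Slc7a2, the inducible carrier of macrophages and epithelium, had 0.104, 1.57 and 1.56 FPKM in the knockout libraries (12, 226 and 232 reads), against 0.0950, 0.00829 and 0.237 FPKM in the WT libraries (14, 1 and 28 reads). Knockout libraries 2 and 3 stood far above the other 4, and knockout library 1 lay inside the WT range. The arginine-degrading enzyme Arg1 showed the same pair on top, with 1.21, 13.8 and 14.3 FPKM against 0.0834, 0.408 and 0.451 FPKM (log2 fold change 2.61, SE 0.74, limma adjusted p = 0.342). Slc7a4 had 1.70 to 3.57 FPKM in the knockout libraries and 1.66 to 3.28 FPKM in the WT libraries.

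The most abundant member was Slc6a14, an apical carrier of neutral and cationic amino acids driven by sodium and chloride. It had 142, 98.7 and 68.7 FPKM in the knockout libraries, against 72.7, 193 and 14.6 FPKM in the WT libraries. The WT libraries spanned a wider range than the knockout libraries and held both the highest and the lowest of the 6 values (103 ± 36.6 against 93.5 ± 91.1, SD, n = 3 each). The log2 fold change was 0.72 (SE 0.88, 95% interval -1.38 to 2.81; limma adjusted p = 0.83), and without WT library 3 it was -0.26. The epithelium marker sum given above was likewise highest in WT library 2 and lowest in WT library 3, and its part in the Slc6a14 values was not tested.

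Slc6a8, the creatine carrier, was second in abundance. It had 86.8, 69.8 and 44.6 FPKM in the knockout libraries, against 46.6, 21.4 and 28.6 FPKM in the WT libraries, and only knockout library 3 and WT library 1 crossed. Its log2 fold change was 1.06 (SE 0.40, 95% interval 0.10 to 2.01; unadjusted p = 0.0350 and adjusted p = 0.459 in limma). With array weights it was 0.61, and its unadjusted p was under 0.05 in 8 of the 14 alternative settings. Ckb, the cytosolic creatine kinase of brain type, had 41.8, 17.4 and 34.0 FPKM in the knockout libraries, against 49.7, 62.1 and 269 FPKM in the WT libraries (log2 fold change -1.66, SE 0.69, limma adjusted p = 0.49). Slc6a6, the taurine carrier, had 7.04, 11.9 and 10.6 FPKM against 4.40, 10.4 and 4.71 FPKM (log2 fold change 0.59, SE 0.36, limma adjusted p = 0.629). The glycine carrier Slc6a9 and the proline carrier Slc6a7 had log2 fold changes of 0.40 and -0.18 with overlapping groups.

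Slc6a19, the main neutral amino acid carrier of the small intestinal brush border, had 0.0475, 0.0635 and 0.135 FPKM in the knockout libraries, against 0.161, 0.106 and 0.232 FPKM in the WT libraries, on 3 to 15 reads a library. Slc6a20a, a carrier of proline and other imino acids, had 0.330 to 0.903 FPKM in the knockout libraries and 0.303 to 0.895 FPKM in the WT libraries. Slc6a4, which takes up serotonin, was highest in WT library 1 at 1.82 FPKM and lay at 0.295 to 0.514 FPKM in the knockout libraries, against 0.318 and 0.342 FPKM in WT libraries 2 and 3.

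Members known chiefly from neurons were lower in every knockout library, and WT library 3 stood out among the WT libraries. Slc6a17, a vesicular carrier of neutral amino acids at synapses, had 0.378, 0.0680 and 0.191 FPKM in the knockout libraries, against 0.404, 0.921 and 5.21 FPKM in the WT libraries. Knockout library 1 and WT library 1 all but touched. The log2 fold change was -1.09 (SE 0.56, 95% interval -2.41 to 0.24; limma adjusted p = 0.561), and it was -0.45 without WT library 3. Slc6a17 reached the mean of 1 FPKM needed for the fit only through WT library 3, and every other library lay under 1 FPKM. Slc7a14, a member of the cationic branch expressed in neurons, had 0.322, 0.0323 and 0.0936 FPKM against 0.864, 0.439 and 2.39 FPKM, on 60 reads against 497. Slc6a15, a neutral amino acid carrier of the brain, had 0.143, 0 and 0.0237 FPKM against 0.168, 0.195 and 0.549 FPKM, and Slc7a3, a cationic carrier of the brain, 0.126, 0 and 0.0810 FPKM against 0.131, 0.260 and 0.389 FPKM. The exact two-sided permutation test gave p = 0.1 for each of these 4, the smallest it allows. Groups of 3 that do not overlap always give that value, so it adds nothing to the separation. Of 10 enteric neuron markers in the fit 9 had negative fold changes (median -1.80), and 0 were called by limma. At an unadjusted p under 0.05 limma had 8 lower and 0 higher, where 4.03% of all tested genes were lower and 6.14% higher. The sum of the neuron markers was likewise highest in WT library 3 and lowest in knockout library 2. What part neuron content has in these 4 genes was not tested.

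**Figure D4:**
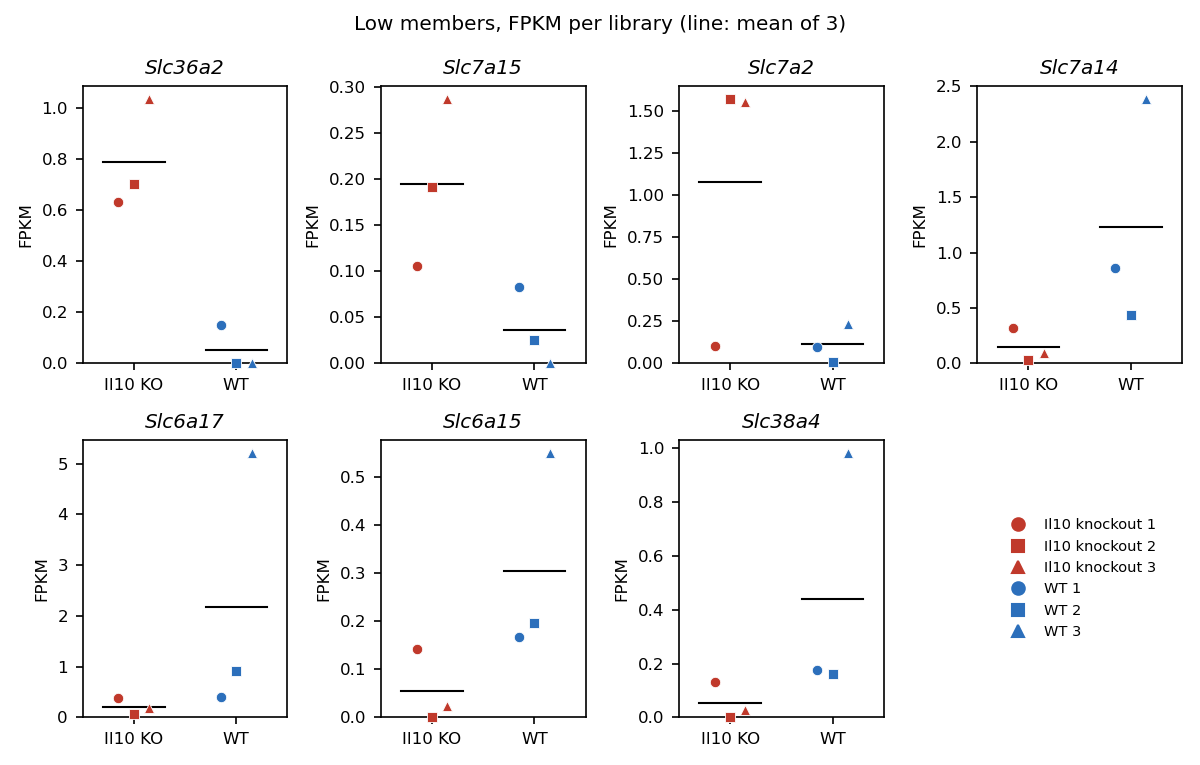
FPKM per library of 7 low members, Il10 knockout left and WT right, with the mean of 3 libraries as a line; the scale differs between panels. Slc36a2 and Slc7a15 lie above all WT libraries in the knockout group, Slc7a2 does so in libraries 2 and 3, and Slc7a14, Slc6a17, Slc6a15 and Slc38a4 lie below, with WT library 3 at the top.

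Among the Slc1 carriers, Slc1a5, an exchanger of glutamine and other small neutral amino acids, was the third most abundant member. It had 37.7, 28.7 and 39.8 FPKM in the knockout libraries, against 65.3, 14.05 and 69.3 FPKM in the WT libraries. The knockout values sat between the WT extremes, and the log2 fold change was -0.19 (SE 0.61, 95% interval -1.65 to 1.27; limma adjusted p = 0.942). Its sign turned without WT library 1 (0.15) or WT library 3 (0.19). Its relative Slc1a4, the carrier of alanine, serine and cysteine, had 3.51, 6.66 and 9.55 FPKM against 6.16, 5.61 and 14.4 FPKM. Slc1a1, the epithelial glutamate carrier, had 3.34, 2.32 and 2.70 FPKM against 4.60, 0.172 and 1.68 FPKM. Slc1a2, Slc1a3, Slc1a6 and Slc1a7, known from glia, neurons and retina, each averaged under 0.1 FPKM.

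Of the proton-coupled carriers, Slc36a2, a carrier of glycine and proline best known from the kidney, had 0.633, 0.703 and 1.04 FPKM in the knockout libraries (26, 36 and 55 reads), against 0.152, 0 and 0 FPKM in the WT libraries (8, 0 and 0 reads). All 3 knockout libraries were above the 1 WT library with reads, and the ratio of mean FPKM, 15.6, rests on the 8 reads of WT library 1, without which the WT libraries have 0 reads and give no ratio. The exact two-sided permutation test gave p = 0.1, which follows from groups that do not overlap and adds nothing to the separation. The fit with no filter gave an adjusted p of 0.264 in limma. It lies on chromosome 11 between Slc36a3 and Slc36a1, with gaps of 6.76 and 19.3 kb, and its neighbours did not follow: Slc36a1, the broadly expressed lysosomal and brush border carrier, had 5.45, 4.87 and 3.95 FPKM in the knockout libraries against 10.8, 3.66 and 3.37 FPKM in the WT libraries, and Slc36a3 had 1 read, in WT library 1. Slc36a4 had 0.993, 0.535 and 0.985 FPKM against 0.853, 2.18 and 2.67 FPKM (log2 fold change -0.61, SE 0.32, limma adjusted p = 0.573).

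The sodium-coupled neutral carriers of the Slc38 family had overlapping groups among the members in the fit. Slc38a2, an amino acid starvation-inducible glutamine and alanine carrier, had 22.5, 21.2 and 14.03 FPKM in the knockout libraries, against 20.99, 27.7 and 21.05 FPKM in the WT libraries (log2 fold change -0.28, SE 0.28, 95% interval -0.95 to 0.40; limma adjusted p = 0.793). Slc38a10 had 7.40, 8.78 and 7.99 FPKM against 6.03, 8.23 and 7.34 FPKM, with a 95% interval of the log2 fold change of -0.35 to 0.65. Slc38a1, Slc38a6 and Slc38a7, the last a lysosomal glutamine exporter, had log2 fold changes of -0.40, 0.0024 and 0.077. Slc38a9, the lysosomal arginine sensor that signals to mTORC1, had 0.541, 0.377 and 0.591 FPKM against 0.423, 0.789 and 1.04 FPKM. Slc38a4 had 0.130, 0 and 0.0288 FPKM against 0.174, 0.160 and 0.981 FPKM, and Slc38a5 had 0 reads in the knockout group against 0.138, 0.0338 and 0.276 FPKM; they rested on 9 and 0 reads in the knockout group, against 75 and 14 in the WT group. The Slc43 carriers had overlapping groups, with Slc43a2 at 0.560, 1.46 and 1.62 FPKM in the knockout libraries, against 0.808, 0.656 and 0.948 FPKM in the WT libraries, and Slc43a3 at 3.23, 3.19 and 5.67 FPKM against 5.18, 2.22 and 8.23 FPKM.

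Over all 59 members with a read, 6 had every knockout library above every WT library (10.2%, where 6.52% of all genes with a read did) and 6 had every one below (10.2%, where 6.93% did). The 6 above were Slc3a2, Slc7a7, Slc7a11, Slc36a2, Slc7a15 (27 reads in the knockout group, against 5 in the WT group) and Slc6a20b (8 against 1). Slc6a20b shares sequence with its neighbour Slc6a20a and reads may be split between them. Exons of Sacm1l on the other strand also share 1800 bases with Slc6a20b, 21.1% of its exon bases, and Sacm1l averaged 1.35 FPKM. The 6 below were Slc6a17, Slc7a14, Slc6a15, Slc7a3, Slc38a4 and Slc38a5. The libraries also differed as such: WT library 2 was the lowest of the 6 for 15 of the 27 members in the fit (55.6%), where it was the lowest for 24.0% of all tested genes, and the highest for 2 (7.41%), where it was the highest for 29.9%. WT library 3 was the highest for 10 (37.0%), where it was the highest for 23.0% of all tested genes. Mitochondrial reads made up 43.42% of the reads of WT library 3, against 20.33% and 11.74% in WT libraries 1 and 2. In knockout libraries 1 to 3 they made up 21.96%, 8.61% and 15.49%. The part of this difference in the values of WT library 3 was not tested.

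Genes that sense and use amino acids were described by lists written with earlier results of these data known, and no gene of these lists passed the adjusted threshold in the main analysis. Of 31 amino acid response genes in the fit, 21 had positive and 10 negative fold changes, with a median of 0.71 beside 0.04 over all tested genes. By limma 0 were called, where 0.182% of all tested genes were. At an unadjusted p under 0.05, 13 of the 31 were higher and 0 lower, where 6.14% of all tested genes were higher and 4.03% lower. That 13 was 5 without knockout library 2 or knockout library 3 and 8 without WT library 1. Ddit4, an inhibitor of mTORC1, had 32.3, 86.4 and 57.9 FPKM in the knockout libraries, against 9.04, 7.94 and 9.13 FPKM in the WT libraries (log2 fold change 2.52, SE 0.38, limma adjusted p = 0.0752). Wars, the tryptophan tRNA ligase that interferon also induces, had a log2 fold change of 2.38 (SE 0.50), Eif4ebp1, a translation repressor, one of 1.49 (SE 0.32), and Chac1, which degrades glutathione, one of 1.73 (SE 0.42), with limma adjusted p of 0.189, 0.201 and 0.261. Asns, asparagine synthetase, had 9.94, 37.9 and 27.4 FPKM against 5.84, 2.80 and 8.88 FPKM. Among the 10 negative genes were Ddit3, Atf3 and Sesn2. Their log2 fold changes were -0.70 (SE 0.31), -0.86 (SE 0.85) and -0.49 (SE 0.76). RNA of Atf4 itself, named after its values were seen, had 93.8, 95.03 and 101 FPKM against 86.8, 99.6 and 141 FPKM.

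The glutathione and cystine defence list, the route that Slc7a11 feeds, had 8 positive and 5 negative fold changes of 13 (median 0.41). Of these 3 were higher at an unadjusted p under 0.05, where 6.14% of all tested genes were, and 0 were called by limma. Among the 3, Hmox1, haem oxygenase, had 5.79, 17.1 and 11.9 FPKM in the knockout libraries, against 2.90, 2.42 and 1.81 FPKM in the WT libraries. Txnrd1, thioredoxin reductase, had a log2 fold change of 1.44 (SE 0.43), and Gsr, glutathione reductase, one of 0.91 (SE 0.37). The list median was 0.017 without knockout library 1, 0.023 without WT library 1 and 0.10 without WT library 3. It was 0.53 without knockout library 2, 0.59 without knockout library 3 and 0.90 without WT library 2. The catalytic and modifier subunits of glutathione synthesis, Gclc and Gclm, had log2 fold changes of -0.19 and -0.10, with WT library 2 highest for both.

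In the remaining lists 0 genes were called by limma, and 10.2% of all tested genes had an unadjusted p under 0.05. At that p 2 of 9 creatine, taurine and betaine enzymes were lower and 0 higher, where 4.03% of all tested genes were lower. Those 2 were 0 without WT library 3 or any single knockout library, and 4 without WT library 2. Of 22 breakdown enzymes 1 was higher and 2 lower. The 16 other transporters and the 20 glutamine, glutamate and arginine enzymes each had 1 higher and 1 lower, and the partners had 0. Of 29 genes of amino acid sensing to mTORC1, 11 were positive and 18 negative (median -0.11), and 0 had an unadjusted p under 0.05 in limma; Sesn1, a leucine sensor of the sestrin family, had the smallest p (log2 fold change -0.68, SE 0.31, adjusted p = 0.507). Of 16 other amino acid and peptide transporters, 7 were positive and 9 negative (median -0.05): Slc15a3, an endolysosomal peptide and histidine carrier of immune cells, had 1.34, 2.66 and 2.42 FPKM against 0.508, 0.593 and 0.507 FPKM, and Slc25a12, the mitochondrial aspartate and glutamate carrier, 1.17, 1.52 and 1.64 FPKM against 2.82, 3.002 and 4.205 FPKM (limma adjusted p = 0.306 and 0.325). Of 20 glutamine, glutamate and arginine enzymes 9 were positive and 11 negative (median -0.05), and of 22 enzymes of branched-chain and other amino acid breakdown 9 and 13 (median -0.07). Of these, Fah, the last enzyme of tyrosine breakdown, had a log2 fold change of -1.18 (SE 0.29) and Tat, the first, one of 1.63 (SE 0.52), with limma adjusted p of 0.275 and 0.393. Of 9 creatine, taurine and betaine enzymes 2 were positive and 7 negative (median -0.59), Ckb among the negative ones; that median was -0.11 without WT library 1, -0.30 without WT library 3 and -0.98 without WT library 2, and 0.13 over the 4 with a mean of at least 5 FPKM. Of the 3 partner proteins Cd44, Itgb1 and Bsg 2 were positive and 1 negative (median 0.15). The medians of the partner, other transporter, glutamine and breakdown lists each changed sign when some single library was left out.

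**Figure D5:**
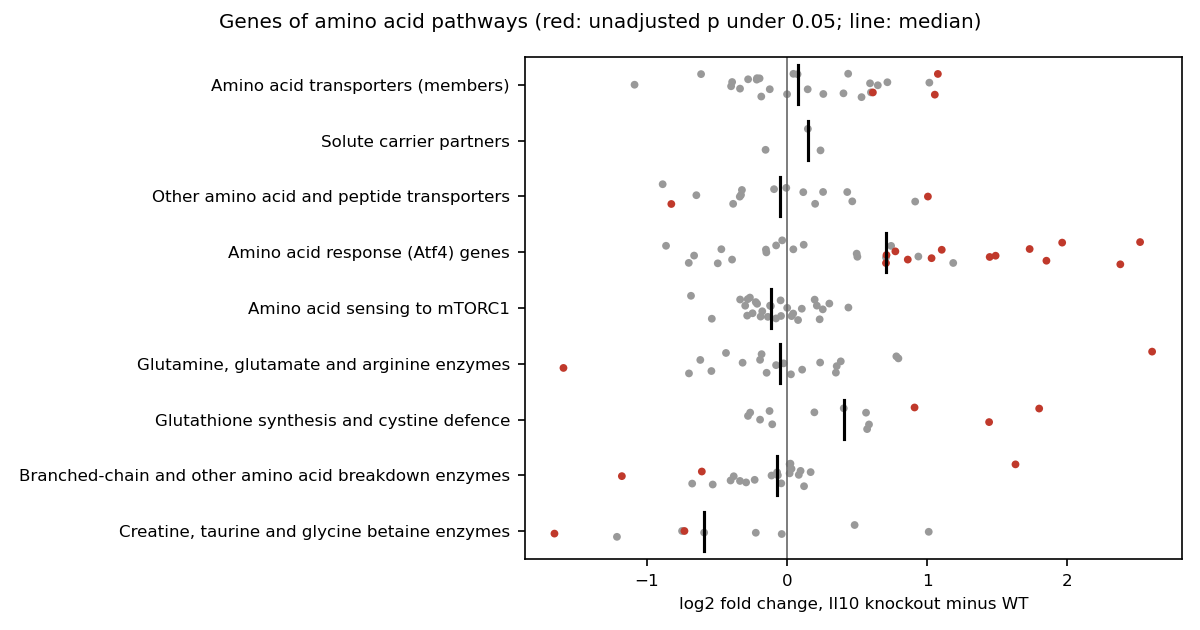
Log2 fold change, Il10 knockout minus WT, of the 27 transporter members and of the genes of 8 amino acid lists in the fit; each point is a gene, red where the unadjusted limma p is under 0.05, and the line is the median. The amino acid response list has the highest median, 0.71, beside 0.08 for the transporters, and no point passed the adjusted threshold.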

How the data were processed

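Colon RNA of 3 Il10 knockout and 3 WT libraries was measured by RNA sequencing. Expression values are the FPKM that the authors deposited, 54532 genes in 1 table that also gives coordinates and lengths, per the file headers; Bowtie 0.12.2 and the builds hg38 and mm8 are named in the submitters' processing notes with no role. Not given in the sources used here: the counting tool, the strand setting and how multi-mapped reads were handled. Coordinates of GENCODE M21 match 61 of the 63 members, and are given as GRCm38. FPKM times gene length came to whole multiples of 1 step per library (tolerance 0.01) for 100.0% of values above 0, which gave the read numbers. The step was 79.2 in knockout library 1 and 61.3 in knockout library 3, on 14262740 and 14235679 recovered reads. The deposited size factor was thus not the recovered total alone, and how it was set is not given. No library repeated another (chi-square per gene of 43.6 or more for every pair).

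The fit took genes averaging 1 FPKM or more, as log2(FPKM + 1) with limma 3.58.1 in R 4.3.3 (trend, no block, Benjamini-Hochberg over all genes, threshold 0.05); such fold changes understate those of low genes. Single values had exact two-sided permutation tests. Summaries ran in Python 3.11.15 with pandas 2.3.3 and numpy 2.4.6, plots in matplotlib 3.10.9. The fit was tested on simulated data. Members, lists and motifs were chosen with earlier results of these data known. Values per library are given for members with an unadjusted p under 0.05, with groups that do not overlap or with a mean of at least 10 FPKM, for chosen heavy and light chains and apical carriers, and, chosen after their values were seen, for some others. List genes are those with the smallest p and some named outside that rule, such as Asns, Atf4, Ddit3, Atf3, Sesn2, Gclc and Gclm. The planned count test was not run because the values are FPKM, and voom on the recovered reads took its place, chosen after seeing the data.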

Additional observations from a re-analysis of the deposited data

How the results depend on the processing

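The planned count test was not run, since the values are FPKM. No member was called in any of the 14 alternatives. The number of members at an unadjusted limma p under 0.05, 3 of 27 in the main analysis, was 9 of 59 with no filter. It was 1 with quantile normalization, 7 with array weights, and 1 to 5 with single libraries left out. The share of all tested genes with such a p was 10.2% in the main analysis, 7.33% with no filter, 10.6% with quantile normalization and 27.03% with array weights. With single libraries left out it was 4.38% to 23.6%. The number of all genes called, 23, was 4 with no filter, 331 with array weights, 7 with the replicate block and 2 with voom, and 4 to 29 with single libraries left out. Array weights gave WT library 1 a weight of 2.76, and WT libraries 2 and 3 weights of 0.198 and 0.465, and 2 amino acid response genes, 2 glutathione genes and 1 gene of the creatine list were called there. Of the glutamine, glutamate and arginine enzymes 1 was called without knockout library 1. Equal replicate numbers were not taken as pairs: deviations of same-numbered libraries correlated at -0.149, 0.180 and 0.396 across genes, and knockout library 1 correlated best with WT library 2. With the replicate block Slc7a7, Slc6a8 and Slc7a9 were the 3 members at an unadjusted p under 0.05 (limma adjusted p of 0.340, 0.375 and 0.383). Slc3a2 was no longer among them (unadjusted 0.0682, limma adjusted p of 0.466).

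Of the 27 members in the fit 14 kept their sign in every alternative, Slc3a2, Slc7a7 and Slc6a8 among them. Log2 fold changes turned sign with single libraries left out, over ranges of -0.042 to 1.09 for Slc1a1, -0.61 to 0.054 for Slc1a4, -0.92 to 0.19 for Slc1a5, -0.57 to 0.028 for Slc6a7, -0.26 to 1.56 for Slc6a14, -0.16 to 0.23 for Slc7a4, -0.50 to 0.089 for Slc7a6, -0.72 to 0.10 for Slc7a8, -0.38 to 0.34 for Slc36a1, -0.85 to 0.0046 for Slc38a1, -0.19 to 0.26 for Slc38a6, -0.14 to 0.30 for Slc38a7 and -0.62 to 0.14 for Slc43a3. With array weights Slc1a1 was -0.36 and Slc38a6 -0.33, and Slc38a6 was -0.015 with TMM factors and -0.053 with quantile normalization; the cause was not tested. Low members rest on few reads, and 3 libraries a group cannot give an exact p under 0.1.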
